A study of Homo sapiens with 9 samples.

Results

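The 10 genes described here encode transcription factors and feedback regulators of the integrated stress response. They are ATF4, ATF3, ATF5, DDIT3 (the gene of the protein CHOP), CEBPB, CEBPG, TRIB3, CHAC1, DDIT4 and PPP1R15A (the gene of the protein GADD34). They were chosen by gene name, with earlier results of these data known, and are 10 of the 61552 genes listed for each library. All 10 passed the filter on low expression, as did 16572 genes in total.

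RNA-seq was performed on MDA-MB-231 cells, a wild-type human line of triple-negative breast cancer (TNBC), in 3 groups of 3 libraries. The control group received phosphate-buffered saline (0 mM 2-DG), and the other groups received 2-deoxy-glucose (2-DG) at 10 mM or at 20 mM, in each case for 24 h. 2-DG is a glucose analogue that hexokinase phosphorylates, that slows glycolysis and that also disturbs the N-linked glycosylation of proteins in the endoplasmic reticulum. The study used it to find genes that respond to altered lactate production. Expression was measured as FPKM, the reads of a gene scaled by its length and by the total reads of the library. The libraries held between 30974968 and 40843638 reads on genes. The methods speak of 3 sample replicates for a condition and do not say whether these were separate cultures, so p-values measure only the spread between these libraries, which may be technical.

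Marker genes were checked against the label of a TNBC line. VIM, the gene of the mesenchymal filament protein vimentin, was at 243 to 313 FPKM over the 9 libraries, CD44 was at 52.9 to 74.1 FPKM and EGFR at 11.4 to 33.6 FPKM. The estrogen receptor gene ESR1 did not exceed 0.00829 FPKM and the progesterone receptor gene PGR did not exceed 0.0204 FPKM, while ERBB2 was at 5.53 to 9.11 FPKM. At 20 mM, 3 of these genes were called. Mean EGFR was 14.0 FPKM in control and 24.8 FPKM at 10 mM, and at 20 mM its log2 change against control was 0.86 with an adjusted p of 0.0104. Over control, 10 mM and 20 mM, mean ERBB2 was 8.81, 5.91 and 5.76 FPKM (-0.54 at 20 mM, adjusted p = 0.000385) and mean CD44 was 69.8, 58.3 and 56.6 FPKM (-0.30, adjusted p = 0.00828), whereas VIM was not called at 20 mM (-0.06, adjusted p = 0.739). Of 7 luminal markers, 4 stayed under 1 FPKM in every library, and KRT19 was the most abundant at 171 to 298 FPKM. The summed luminal markers were at 306, 259 and 265 FPKM in control, at 176, 228 and 193 FPKM at 10 mM and at 181, 191 and 181 FPKM at 20 mM. Markers of other cells were low: 3 of 4 immune markers, 4 of 5 fibroblast markers, 2 of 3 endothelial markers and 2 of 2 red blood cell markers stayed under 1 FPKM in every library. The exceptions were CD14 (up to 3.83 FPKM), COL1A1 (up to 1.33 FPKM) and PECAM1 (up to 1.95 FPKM). CD14 (-0.71, adjusted p = 0.00904), PECAM1 (-0.51, adjusted p = 0.00318) and PDGFRB (-0.20, adjusted p = 0.0285) were called lower at 20 mM. So were the luminal markers KRT19 (-0.58, adjusted p = 0.00159), GATA3 (-0.39, adjusted p = 0.0148) and CDH1 (-0.35, adjusted p = 0.000207). CDH1 and PDGFRB were low, with means of 0.365 and 0.450 FPKM in control and 0.0686 and 0.259 FPKM at 20 mM. The log2 changes are of FPKM + 1, which shrinks them at such levels. COL1A1 (-0.07, adjusted p = 0.530) and EPCAM (-0.29, adjusted p = 0.0929) were not called. The summed immune markers, of which CD14 was the most abundant, were at 4.0, 2.92 and 2.49 FPKM in the control libraries, at 1.73, 2.82 and 1.98 FPKM at 10 mM, where they overlapped control, and at 1.86, 1.47 and 1.16 FPKM at 20 mM. The summed endothelial markers, for the most part PECAM1, were at 1.47, 1.82 and 1.95 FPKM in control, at 1.16, 1.45 and 1.12 FPKM at 10 mM and at 0.854, 1.05 and 0.873 FPKM at 20 mM. The summed fibroblast markers, for the most part COL1A1, were at 2.01, 1.79 and 1.70 FPKM in control, at 1.31, 1.25 and 1.25 FPKM at 10 mM and at 1.65, 1.38 and 1.23 FPKM at 20 mM. The part of such markers in the results was not tested. In bulk RNA, fewer cells of a type and less RNA per cell cannot be told apart.

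In the integrated stress response, kinases that sense endoplasmic reticulum stress, amino acid shortage, heme shortage or double-stranded RNA phosphorylate the initiation factor eIF2. General translation then slows, while the ATF4 mRNA is translated more efficiently, and the ATF4 protein pairs with C/EBP factors on DNA to switch on genes of amino acid supply and stress. Under prolonged stress CHOP joins this program, and GADD34 and TRIB3 feed back on it by promoting the dephosphorylation of eIF2 and by restraining ATF4. Because ATF4 is controlled in large part at translation, its mRNA level is not a measure of its protein, and protein was not analysed here.

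Factors of this pathway bind the C/EBP-ATF response element, and CREB and ATF dimers bind the cAMP response element (CRE). Both were looked for in the promoters of the 10 genes, because most of these genes moved together in the libraries. The promoter windows came from RefSeq on GRCh38.p14 and ran from 250 bases before to 50 bases after each start, and all 10 genes matched, with 19 windows. The core of the C/EBP-ATF response element, TGATGNAA on either strand, stood in 3 of the 19 windows, 1 each of ATF3, CHAC1 and CEBPG, and in 3.62% of all 35116 windows. The CRE, TGACGTCA, which is its own reverse complement, stood in 1 of the 19, that of PPP1R15A, where it overlapped no match of the other motif, and in 1.85% of all windows. The stretches around these matches are shown 5′ to 3′ on the plus strand of the genome, with the matching letters in capitals.
CEBPG: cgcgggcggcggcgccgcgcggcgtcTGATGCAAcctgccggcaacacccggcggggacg
CHAC1: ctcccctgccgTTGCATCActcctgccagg
ATF3: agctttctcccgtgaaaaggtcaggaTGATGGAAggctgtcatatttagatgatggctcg
PPP1R15A: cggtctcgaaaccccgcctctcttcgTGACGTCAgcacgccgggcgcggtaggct

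The CEBPG stretch lies at chr19:33374045-33374104, in an intron of the annotated gene, with its match 42 to 35 bases before a start. The CHAC1 stretch lies at chr15:40953251-40953280, inside an exon of a longer annotated transcript and 209 to 202 bases before the RefSeq start, and it carries the motif on the minus strand. The ATF3 stretch lies at chr1:212565190-212565249 and the PPP1R15A stretch at chr19:48872337-48872391, both upstream of the annotated gene, with matches 191 to 184 and 58 to 51 bases before the start. The windows of ATF4, ATF5, DDIT3, CEBPB, TRIB3 and DDIT4 did not hold these letters. A match describes the reference sequence and not binding in these cells.

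At both doses most of the 10 genes were higher than in control, and none passed the test as lower. TRIB3 rose the most, to 3.85 times its control mean at 20 mM, followed by CHAC1 and DDIT3 at 2.86 and 2.83 times and CEBPG at 2.23 times. ATF4 itself rose to 1.57 times its control mean at either dose. DDIT4 and ATF5 did not follow the other genes. With limma on log2(FPKM + 1) and Benjamini-Hochberg adjustment over all 16572 genes, 7 of the 10 had an adjusted p under 0.05 and were higher at 10 mM, and 0 were lower. Among all genes tested, 12.1% were called higher and 17.5% lower at 10 mM. At 20 mM, 8 of the 10 were called higher and 0 lower, beside 15.4% and 21.6% of all genes. The balance over all genes depended on the scaling of the libraries. The 2011 genes higher and 2903 lower at 10 mM became 2481 and 2324 with upper-quartile scaling, and the 2544 higher and 3582 lower at 20 mM became 3277 and 2780. The counts for the 10 genes were the same with upper-quartile and with median-ratio scaling. The median log2 fold change of the 10 genes was 0.66 at 10 mM and 0.69 at 20 mM, and that of all genes tested was -0.01 and -0.02. Both comparisons share the control libraries.

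Differentially expressed genes (DEGs) were counted with limma at an unadjusted p under 0.05 and a log2 fold change above 1 or below -1. The methods of the study name DESeq2 for its DEGs and do not say whether p was adjusted, so the genes counted here need not be the same. TRIB3, CHAC1 and DDIT3 were DEGs at 10 mM, and CEBPG joined them at 20 mM. That makes 3 and 4 of the 10, all higher, where 0.579% and 0.965% of all genes were higher DEGs, and 1.16% and 1.96% were lower DEGs. By the libraries alone, 8 of the 10 genes were higher in every 10 mM library than in every control library and 0 were lower in this way, while 17.8% and 22.7% of all genes showed such a separation upward and downward. At 20 mM the counts were 8 upward and 2 downward, beside 23.3% and 29.9% of all genes, so 2 of 10 downward was no more than the share among all genes. The downward count depended on the scaling, with 1 gene (DDIT4) under median-ratio and 0 under upper-quartile scaling, whereas the upward count was 8 under both. At 10 mM, 1 gene (DDIT4) was separate downward without 10 mM replicate 2 or without control replicate 3, beside 27.8% and 26.02% of all genes.

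**Figure D1:**
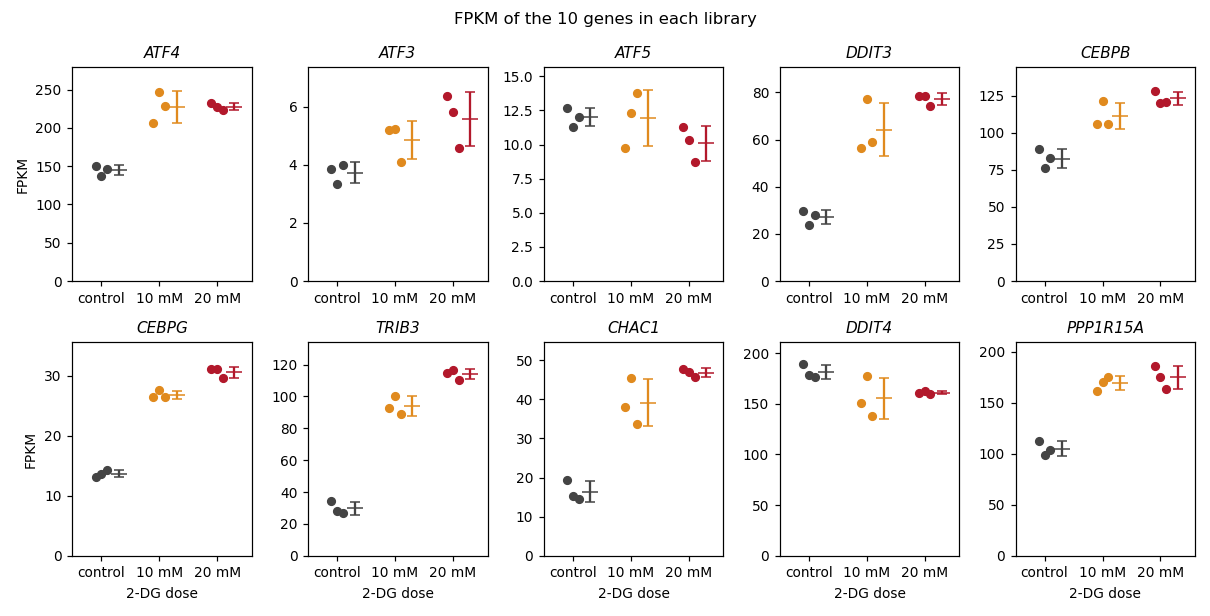
FPKM of each of the 10 genes (vertical axes, from 0) in the 3 libraries of control, 10 mM and 20 mM 2-DG (horizontal axes). Points are libraries and the bar to their right is the mean ± SD of the 3. TRIB3, DDIT3, CHAC1 and CEBPG stand clear of control at both doses, ATF5 overlaps control at 10 mM, and DDIT4 has the highest control mean of the 10.

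ATF4, the transcription factor at the head of the pathway, lies on the plus strand at chr22:39519695-39522685 (GENCODE 29, GRCh38). Its level was 151, 137 and 147 FPKM in control, 206, 247 and 228 FPKM at 10 mM, and 232, 228 and 223 FPKM at 20 mM. Every treated library was above every control library, and the 20 mM libraries lay within the range of the 10 mM libraries. The log2 fold change was 0.64 at 10 mM (SE 0.07, adjusted p = 0.000211) and 0.65 at 20 mM (SE 0.07, adjusted p = 0.000135). Of 4 pseudogene copies of ATF4 in the files, 2 were at 0 in all libraries, ATF4P4 was at 0.123 to 0.317 FPKM and ATF4P3 at 0.187 to 1.37 FPKM, so reads placed on these copies were few beside those on ATF4.

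DDIT3 encodes CHOP, a C/EBP-family factor that is induced by ATF4 and linked to cell death under lasting stress. It lies on the minus strand at chr12:57516588-57521737. DDIT3 was at 29.7, 23.8 and 28.2 FPKM in control, at 56.2, 77.0 and 59.0 FPKM at 10 mM, and at 78.5, 78.5 and 74.4 FPKM at 20 mM. The control libraries lay well below all treated libraries, and replicate 2 at 10 mM stood with the 20 mM libraries. Its log2 fold change was 1.20 at 10 mM (SE 0.12, adjusted p = 7.17e-05) and 1.47 at 20 mM (SE 0.12, adjusted p = 1.22e-05). By log2 fold change DDIT3 ranked 54 of the 16572 genes at 10 mM and 41 at 20 mM, counted from the top. The exons of DDIT3 share 355 bases with MARS1 on the opposite strand, and 58 bases with MBD6. Both of these genes were called higher as well. MARS1 had means of 43.5 FPKM in control, 59.7 FPKM at 10 mM and 62.4 FPKM at 20 mM (log2 fold change 0.51 at 20 mM, adjusted p = 0.000183), and for MBD6 the log2 value was 0.32 (adjusted p = 0.0138). Whether reads were counted by strand is not given in the sources used here, so reads from these shared bases cannot be assigned, and their part in the DDIT3 value was not tested.

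CEBPG and CEBPB encode C/EBP factors that can pair with ATF4. CEBPG (chr19:33373330-33382686, plus strand) was at 13.2, 13.6 and 14.3 FPKM in control, at 26.4, 27.6 and 26.4 FPKM at 10 mM, and at 31.0, 31.1 and 29.5 FPKM at 20 mM. The groups did not overlap at all, and the libraries of a group lay close together. The log2 fold change of CEBPG was 0.92 at 10 mM (SE 0.05, adjusted p = 3.49e-06) and 1.11 at 20 mM (SE 0.05, adjusted p = 6.69e-07). CEBPB (chr20:50190734-50192689, plus strand) was at 89.0, 76.1 and 82.7 FPKM in control, at 106, 121 and 106 FPKM at 10 mM, and at 128, 120 and 121 FPKM at 20 mM. Treated and control libraries did not overlap, while the doses overlapped each other. For CEBPB the log2 fold change was 0.42 at 10 mM (SE 0.08, adjusted p = 0.00269) and 0.57 at 20 mM (SE 0.08, adjusted p = 0.000317), a smaller value than that of CEBPG at each dose, although a difference between these genes was not tested. Its antisense partner CEBPB-AS1, which shares 231 exon bases, had means of 0.143, 0.418 and 0.474 FPKM in control, at 10 mM and at 20 mM. Its log2 fold change was 0.31 at 10 mM (adjusted p = 0.0534, not called) and 0.36 at 20 mM (adjusted p = 0.0236). Reads from these shared bases cannot be assigned either.

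ATF3, a stress-induced factor that can act as a repressor, had the lowest level of the 10 genes and rested on 495 to 936 reads per library. It lies on the plus strand at chr1:212565334-212620777. ATF3 was at 3.85, 3.34 and 4.01 FPKM in control, at 5.21, 5.23 and 4.10 FPKM at 10 mM, and at 6.38, 5.82 and 4.57 FPKM at 20 mM. The lowest treated library was 4.10 FPKM against 4.01 FPKM for the highest control library, so the groups were separate by a narrow margin. The log2 fold change was 0.30 at 10 mM (SE 0.12, adjusted p = 0.0994), which missed the threshold, and 0.47 at 20 mM (SE 0.12, adjusted p = 0.0146). At 20 mM the call was lost without control replicate 2 (adjusted p = 0.0531), without 20 mM replicate 1 (adjusted p = 0.0630) and without 20 mM replicate 2 (adjusted p = 0.0533), and over all alternatives the adjusted p ran from 0.00640 to 0.0630. At this level the added 1 lowers the fold change, since the log2 ratio of the mean FPKM was 0.58.

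ATF5, a factor related to ATF4 that is also controlled at translation and is known for inducing mitochondrial stress genes, did not pass the test at either dose. It lies on the plus strand at chr19:49928702-49933935. ATF5 was at 12.6, 11.3 and 12.0 FPKM in control, at 9.76, 12.3 and 13.8 FPKM at 10 mM, and at 11.3, 10.3 and 8.72 FPKM at 20 mM. The 10 mM libraries spread around the control libraries, and the 20 mM libraries lay below them by a margin of 0.0467 FPKM, which was lost under either other scaling. Its log2 fold change was -0.02 at 10 mM (95% interval -0.29 to 0.25, adjusted p = 0.932) and -0.23 at 20 mM (95% interval -0.50 to 0.04, adjusted p = 0.164). An increase of ATF5 as large as that of ATF4 lay outside both intervals, which cover only the spread between libraries. ATF5 shares 626 exon bases with NUP62 on the opposite strand. These reads cannot be assigned either, and their part in the ATF5 values and intervals was not tested. NUP62 itself was called lower, with means of 23.0 FPKM in control and 16.5 FPKM at 20 mM (log2 fold change -0.45 at 20 mM, adjusted p = 0.00029).

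Among the feedback and effector genes, TRIB3 had the largest change. It encodes a pseudokinase that binds ATF4 and AKT, and it lies on the plus strand at chr20:362835-397559. TRIB3 was at 34.1, 27.8 and 27.1 FPKM in control, at 92.5, 101 and 88.7 FPKM at 10 mM, and at 115, 117 and 111 FPKM at 20 mM. The 3 groups did not overlap, and the gap between control and either dose was wider than the range within any group. The log2 fold change of TRIB3 was 1.64 at 10 mM (SE 0.09, adjusted p = 2.66e-06) and 1.92 at 20 mM (SE 0.09, adjusted p = 5.10e-07), which placed it at rank 13 and rank 10 of the 16572 genes, counted from the top.

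CHAC1 encodes an enzyme that degrades glutathione and is a known target of ATF4. It lies on the plus strand at chr15:40952962-40956519, and its promoter stretch with a C/EBP-ATF response element core is shown above. CHAC1 was at 19.4, 15.2 and 14.5 FPKM in control, at 38.1, 45.6 and 33.7 FPKM at 10 mM, and at 47.9, 47.0 and 45.7 FPKM at 20 mM. Each group was apart from the others, although 10 mM replicate 2 came within 0.138 FPKM of the lowest 20 mM library and overlapped it with median-ratio scaling. The log2 fold change of CHAC1 was 1.21 at 10 mM (SE 0.12, adjusted p = 8.34e-05) and 1.47 at 20 mM (SE 0.12, adjusted p = 1.51e-05).

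PPP1R15A encodes GADD34, the subunit that brings protein phosphatase 1 to phosphorylated eIF2. It lies on the plus strand at chr19:48872392-48876057. PPP1R15A was at 113, 98.3 and 104 FPKM in control, at 162, 171 and 176 FPKM at 10 mM, and at 186, 175 and 163 FPKM at 20 mM. All treated libraries were above control, and the doses overlapped, as for ATF4. Its log2 fold change was 0.69 at 10 mM (SE 0.07, adjusted p = 0.000111) and 0.73 at 20 mM (SE 0.07, adjusted p = 4.77e-05).

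DDIT4 encodes REDD1, an inhibitor of the growth kinase complex mTORC1 that is induced by hypoxia, glucocorticoids and other stresses as well as by ATF4. It lies on the plus strand at chr10:72273920-72276036. DDIT4 was at 189, 178 and 176 FPKM in control, at 151, 178 and 138 FPKM at 10 mM, and at 161, 163 and 160 FPKM at 20 mM. The 20 mM libraries were all below control by at least 13.4 FPKM, whereas 10 mM replicate 2 reached the control range. With upper-quartile scaling the 20 mM libraries overlapped control. Its log2 fold change was -0.23 at 10 mM (95% interval -0.42 to -0.03, adjusted p = 0.0763) and -0.17 at 20 mM (95% interval -0.36 to 0.02, adjusted p = 0.159), so DDIT4 was not called. Without 10 mM replicate 2, DDIT4 was called lower at 10 mM (log2 fold change -0.33, adjusted p = 0.00429) and at 20 mM (-0.17, adjusted p = 0.0366), and it was also called lower at 20 mM when the 6 libraries of that comparison were fitted alone (adjusted p = 0.0248). Over all alternatives the adjusted p ran from 0.00429 to 0.231 at 10 mM and from 0.0248 to 0.584 at 20 mM. The exons of DDIT4 share 847 bases with DDIT4-AS1 on the opposite strand, which was not analysed here.

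**Figure D2:**
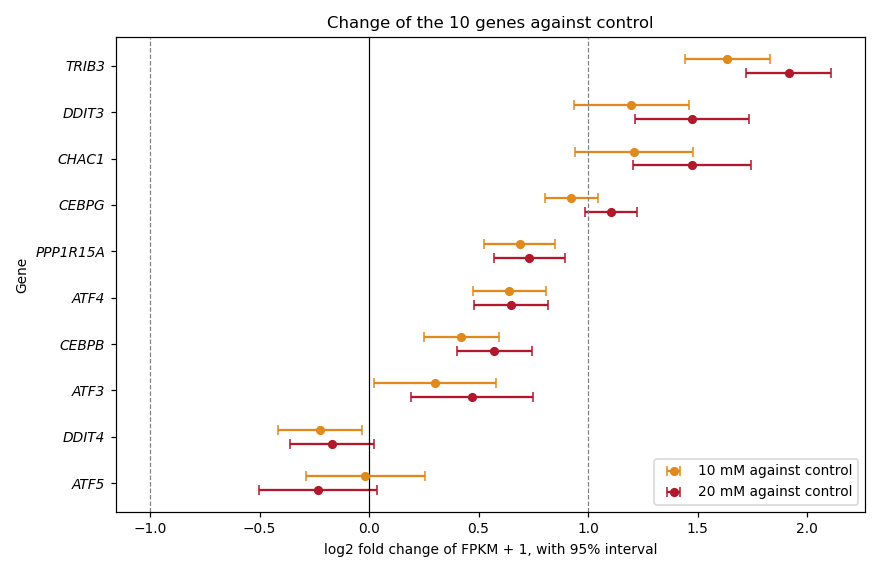
Log2 fold change of FPKM + 1 against control (horizontal axis) for each of the 10 genes (vertical axis), at 10 mM and 20 mM, with 95% intervals from limma. The dashed lines mark the fold threshold for DEGs at 1 and -1. The 20 mM values run from -0.23 for ATF5 to 1.92 for TRIB3.

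The order of the 10 genes by level changed with treatment. In control, DDIT4 had the highest mean at 181 ± 6.92 FPKM (SD, n = 3), followed by ATF4 at 145 ± 6.81, PPP1R15A at 105 ± 7.28 and CEBPB at 82.6 ± 6.46 FPKM. TRIB3 and DDIT3 came next at 29.7 ± 3.88 and 27.2 ± 3.09 FPKM, and their libraries overlapped. CHAC1 at 16.4 ± 2.67, CEBPG at 13.7 ± 0.550, ATF5 at 12.0 ± 0.663 and ATF3 at 3.73 ± 0.347 FPKM followed, each pair of neighbours without overlap. With 10 mM 2-DG, ATF4 was first at 227 ± 20.9 FPKM, ahead of PPP1R15A at 169 ± 6.95 and DDIT4 at 156 ± 20.3 FPKM, which overlapped each other. With 20 mM 2-DG the order was the same, from ATF4 at 228 ± 4.86, PPP1R15A at 175 ± 11.2, DDIT4 at 161 ± 1.42, CEBPB at 123 ± 4.47 and TRIB3 at 114 ± 3.21 FPKM down to ATF5 at 10.1 ± 1.29 and ATF3 at 5.59 ± 0.931 FPKM, and no neighbours overlapped. DDIT4 thus went from rank 1 to rank 3, with ATF4 and PPP1R15A above it.

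DDIT3 and TRIB3 were at a higher level relative to ATF4 in the treated libraries, which follows from their larger fold changes given above. The FPKM of DDIT3 was 18.7% ± 1.28 (SD, n = 3) of that of ATF4 in control, 28.1% ± 2.71 at 10 mM and 33.9% ± 0.547 at 20 mM. For TRIB3 the values were 20.4% ± 2.10, 41.5% ± 3.12 and 50.1% ± 1.04. For both genes the ranges of the 3 groups did not overlap, from 17.3% to 19.7%, 25.9% to 31.1% and 33.4% to 34.5% for DDIT3. The ratios were computed only for these genes, which are among those with the largest rises. CEBPB, ATF3, ATF5 and DDIT4 had smaller log2 fold changes than ATF4 at both doses. No test was run on these ratios.

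The comparison of 20 mM with 10 mM asks whether the higher dose changed these genes further. No gene of the 10 was called with limma, as 0.0% of all genes were called higher and 0.0% lower. With limma-voom on the reads recovered from the FPKM values, 0 genes were called as well. Without 10 mM replicate 1, 1 gene was called higher and 3 lower, and with no filter on low values 3 were lower. Of the 10 genes, 0 were called in these alternatives. At an unadjusted p under 0.05 there were 1139 of all genes and 3 of the 10. The 3 genes were TRIB3 with a log2 fold change of 0.28 (95% interval 0.09 to 0.47, adjusted p = 0.491), DDIT3 with 0.28 (0.02 to 0.54, adjusted p = 0.706) and CEBPG with 0.18 (0.06 to 0.30, adjusted p = 0.451). CHAC1 had 0.26 (-0.0048 to 0.53, adjusted p = 0.727). In contrast, the value was 0.01 for ATF4 (-0.16 to 0.17) and 0.04 for PPP1R15A (-0.12 to 0.21), so a further increase of ATF4 by 0.28 lay outside its interval. A difference between the genes in this respect was not tested. CEBPG, TRIB3 and CHAC1 were higher in every 20 mM library than in every 10 mM library, 3 of the 10, where 4.71% of all genes were separated in this direction. With median-ratio scaling CHAC1 was no longer separate, which left 2 of the 10 beside 5.62% of all genes. These counts also depended on single libraries. Without 10 mM replicate 2, 6 of the 10 were separate upward beside 12.7% of all genes, and 6 had an unadjusted p under 0.05 beside 1686 of 16572 genes (10.2%, against 6.87% with every library). Without 20 mM replicate 3, 5 were separate upward beside 8.50% of all genes. ATF5 was separate downward without 10 mM replicate 1, as were 15.5% of all genes, and in each of these cases 0 of the 10 were called after adjustment.

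**Figure D3:**
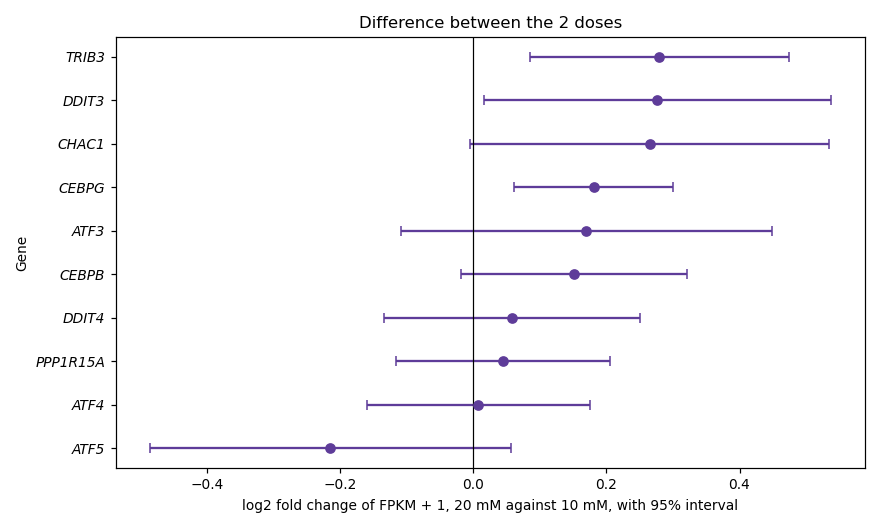
Log2 fold change of FPKM + 1 at 20 mM against 10 mM (horizontal axis) for each of the 10 genes (vertical axis), with 95% intervals from limma that are not adjusted for the number of genes. The intervals of TRIB3, DDIT3 and CEBPG lie above 0, and those of the other genes include 0.

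Within a group, several of the 10 genes were highest or lowest in the same library. In the 10 mM group, replicate 2 had the highest level of 8 of the 10 genes, with ATF5 and PPP1R15A as the exceptions, and its values of log2(FPKM + 1) were on average 0.13 above the group means. The lowest level at 10 mM was split, with 5 genes lowest in replicate 1 and 5 in replicate 3. In the 20 mM group, replicate 3 had the lowest level of 9 of the 10, and in control replicate 1 had the highest level of 8. With either other scaling, 20 mM replicate 1 was highest for 10 of the 10 genes, against 6 here, and replicate 3 was still lowest for 9. Control replicate 1 was highest for 9 with median-ratio and for 8 with upper-quartile scaling. The share of all genes highest or lowest in each of these libraries was not computed. Whether these counts are particular to the 10 genes was therefore not tested. The spread at 10 mM was wide for several genes, with a coefficient of variation of 17.6% for DDIT3 and 15.3% for CHAC1. At 20 mM these values were 3.08% and 2.34%, and in control 11.3% and 16.3%. TRIB3 spread more in control (13.1%) than at 10 mM (6.44%). ATF3, PPP1R15A and CEBPG spread less at 10 mM (13.4%, 4.10% and 2.56%) than at 20 mM (16.6%, 6.38% and 2.85%). The 10 mM libraries also differed from each other more than those at 20 mM over all genes, with correlations of log2(FPKM + 1) between 0.989 and 0.994 against 0.996 for each pair at 20 mM. Reads on mitochondrial genes made up 7.70%, 8.35% and 9.75% of the reads at 10 mM, 7.57%, 7.15% and 7.87% in control and 7.95%, 8.05% and 7.75% at 20 mM. The part of these differences in the results was not tested.

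The kinases and the translation factors upstream of ATF4 were looked at next. The rises and falls given below for 8 gene lists are log2 fold changes at 20 mM against control, called with limma, and each count is to be read beside the 15.4% of all genes called higher and the 21.6% called lower at that dose. The lists were chosen with earlier results of these data known, and no test compared a list with the other genes. Of 9 eIF2 kinases and their regulators, 3 were higher and 2 lower at 20 mM, with a median log2 fold change of -0.06 beside -0.02 for all genes tested, and 2 of 9 lower was near the share among all genes. DNAJC3, a chaperone gene whose product inhibits the kinase PERK, rose by 1.51 (adjusted p = 8.26e-06), DELE1, which relays mitochondrial stress, by 0.31 and EIF2AK3, the gene of PERK, by 0.27 from a control mean of 0.639 FPKM. EIF2AK4, the gene of the amino acid sensor GCN2, fell by 0.43 (adjusted p = 0.0128) and EIF2AK1 fell by 0.22. Of 12 genes of eIF2, its exchange factor eIF2B and the eIF2 phosphatases, 3 were higher, 2 lower and 7 not called, with a median of 0.03, so these counts were within 1 or 2 genes of the shares among all genes. The largest rise was that of PPP1R15B, the constitutive counterpart of GADD34, by 0.64 (adjusted p = 0.00236), followed by EIF2S2 and EIF2B2 with 0.39 and 0.37, while PPP1CC fell by 0.36 and EIF2B3 fell by 0.26. At 10 mM the counts were 3 higher and 1 lower for the first list and 3 higher and 2 lower for the second.

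Other basic leucine zipper factors, the class to which ATF4, CHOP and the C/EBP factors belong, included genes called higher and genes called lower. Of 37 such genes, 34 were tested, and 12 were higher and 6 lower at 20 mM, with a median of 0.12. The 6 lower of 34 were no more than the share among all genes. JDP2 rose by 0.88 (adjusted p = 3.63e-05), XBP1 by 0.84, MAFG by 0.61 and NFE2L1 by 0.53. CEBPD, another C/EBP factor, had a mean of 36.0 FPKM in control, 17.9 FPKM at 10 mM and 11.8 FPKM at 20 mM and fell by 1.53 on the log2 scale at 20 mM (adjusted p = 1.65e-05), opposite to CEBPB and CEBPG. NFE2L3 fell by 0.91 (adjusted p = 5.89e-05). At 10 mM, 10 were higher and 5 lower.

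Paralogues of the feedback genes were called higher in 3 of 5 cases at both doses, with a median of 0.64 at 20 mM. TRIB1 and TRIB2, the relatives of TRIB3, rose by 0.73 (adjusted p = 3.63e-05) and 0.66 (adjusted p = 0.00182) at 20 mM, and PPP1R15B is given above. CHAC2, the relative of CHAC1, was not called at -0.18 (adjusted p = 0.322) nor was DDIT4L, at a mean of at most 0.175 FPKM in any group, at 0.11 (adjusted p = 0.124). Among 8 genes of mTORC1 inhibition, the function of DDIT4, 4 were higher and 0 lower at each dose, with a median of 0.26 at 20 mM. SESN2 rose by 1.28 (adjusted p = 7.32e-06), EIF4EBP1, the gene of a translation repressor that mTORC1 inactivates, by 0.88, AKT1S1 by 0.36 and SESN1 by 0.29, while DDIT4 itself was not called.

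Known ATF4 and CHOP targets outside the 10 genes were higher in 34 of 37 tested cases at 20 mM and in 32 of 37 at 10 mM, with 0 lower at either dose. Their median log2 fold change was 0.83 at 20 mM and 0.74 at 10 mM. SLC3A2, the heavy chain of amino acid transporters, rose by 2.06 (adjusted p = 2.86e-07), from a mean of 108 FPKM in control to 451 FPKM at 20 mM. SLC7A11, the cystine carrier that pairs with it, rose by 1.65, the serine synthesis gene PSAT1 by 1.51 and the glutamine carrier gene SLC1A5 by 1.34. CBS, the gene not tested, was listed at 0 in every library. Of 7 death genes linked to CHOP, 1 was higher and 0 lower at 20 mM, with a median of -0.02, and 2 were higher at 10 mM. Having 1 of 7 higher was near the 15.4% among all genes, and the difference from the target list was not tested. The gene higher at 20 mM was TNFRSF10A, a TRAIL receptor gene, which rose by 0.49 (adjusted p = 0.000322). TNFRSF10B, the receptor gene best known as a CHOP target, was at -0.05 (adjusted p = 0.706) on the log2 scale and is named after its values were seen, outside the rule for named genes.

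The ATF6 and XBP1 arm of the unfolded protein response was higher throughout, with 15 of 15 genes called at each dose and medians of 1.52 at 10 mM and 1.80 at 20 mM. The chaperone genes HSPA5 and HYOU1 rose by 2.38 and 2.33 at 20 mM, PDIA4 by 2.15 and CRELD2 by 1.89. DNAJC3, XBP1, SESN2, EIF4EBP1, PPP1R15B and ERO1A belong to 2 of the lists each. None of the genes in these 8 lists was called between the doses.

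**Figure D4:**
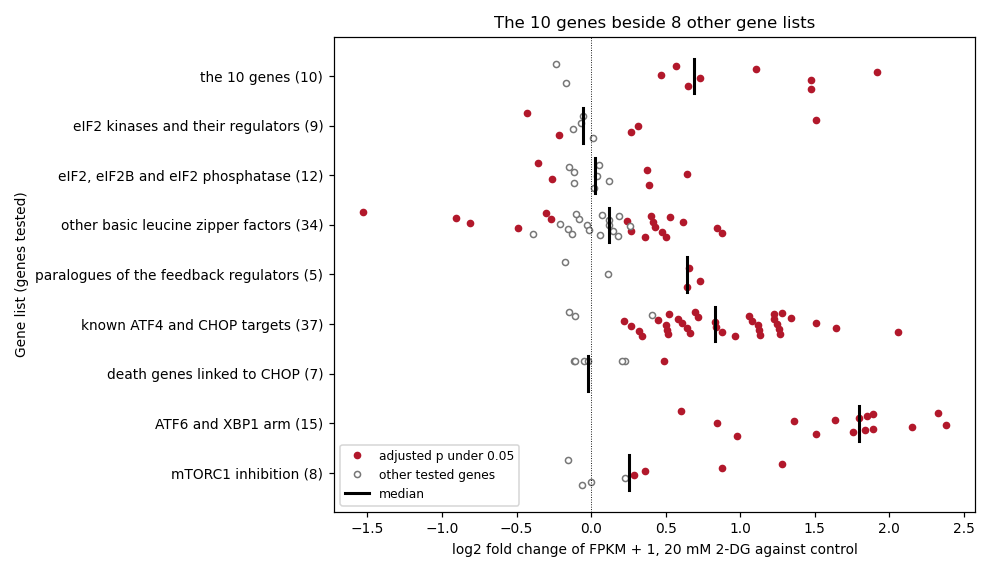
Log2 fold change of FPKM + 1 at 20 mM 2-DG against control (horizontal axis) of the 10 genes and of the tested genes of 8 lists (vertical axis, number of tested genes in brackets). Filled points have an adjusted p under 0.05, open points do not, and black bars are medians. The medians run from -0.06 for the eIF2 kinases to 1.80 for the ATF6 and XBP1 arm.

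The genes whose pattern over the 9 libraries was most like that of ATF4 and of DDIT3 were looked up among 10425 named genes with a mean of at least 1 FPKM. For ATF4 these were CCR5AS, AGR2 and CNPY3, with Pearson r of log2(FPKM + 1) of 0.994, 0.993 and 0.992. For DDIT3 they were SLC35B1, MYDGF and LARP6, with r of 0.997, 0.995 and 0.995. SLC35B1 was at a mean of 10.5 FPKM in control, 17.6 FPKM at 10 mM and 19.0 FPKM at 20 mM. Among the 10 genes, DDIT3 had r = 0.982 with ATF4 and ranked 40, and PPP1R15A had r = 0.982 and ranked 41. ATF5 and DDIT4 had r of -0.20 and -0.59 with ATF4. All these values describe 9 libraries in 3 dose groups, and libraries of a group share their dose. Correlations within the groups were not computed.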

How the data were processed

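RNA from MDA-MB-231 cells was sequenced on an Illumina NovaSeq instrument. The authors deposited FPKM values per gene and library, and the unit was inferred from the values. The submitters' processing notes name GRCh38 (hg38), and the aligner and counter are not given in the sources used here. The steps between low values gave the library totals. With annotated lengths, 15941 of 32806 genes above 0 gave whole reads, within 1e-05 of a read plus a share of 3e-09 of the reads. For the other 16865 the smallest length that gave whole reads was used, so being whole is no check there. The reads summed to 99.8% to 99.9% of the totals, and 1 read on 1 kb equalled 0.0245 to 0.0323 FPKM. Genes needed at least 10 reads in at least 3 libraries and 15 reads in all. limma 3.58.1 in R 4.3.3 was fitted to log2(FPKM + 1) of all 9 libraries with a variance trend and tested on simulated data. Fold changes are on this scale, which understates low genes. Gene positions came from GENCODE 29. Python 3.11.15 was used for summaries. The 10 genes and the gene lists were chosen with earlier results of these data known. From each list, up to 4 genes called higher and 2 called lower with the largest change at 20 mM were named, or any gene of lists of up to 6. Genes like ATF4 and DDIT3 were the 3 with the highest r. 1 marker gene is not reported here.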

Additional observations from a re-analysis of the deposited data

How the results depend on the processing

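The counts of the 10 genes called, at an unadjusted p under 0.05, or counted as DEGs were recomputed with a pseudocount of 0.1, other filters, median-ratio and upper-quartile scaling, only the 6 libraries compared, no variance trend, the replicate number as a block, limma-voom on recovered reads, and each library left out. Leaving out a library moved the number called higher at 20 mM between 7 and 8, and the numbers called lower at 10 mM and at 20 mM between 0 and 1 each. The counts of genes whose libraries did not overlap were recomputed for both scalings and with each library left out, which by construction makes overlap less likely. Downward at 20 mM, 2 genes became 1 with median-ratio and 0 with upper-quartile scaling. Leaving out a library moved the separate genes between 0 and 1 downward at 10 mM, between 3 and 6 upward from 10 to 20 mM, and between 0 and 1 downward there, and moved those at an unadjusted p under 0.05 between the doses from 2 to 6. With only the 6 libraries compared, 1 gene was called lower at 20 mM (DDIT4). The cause was not tested. A threshold of 1.5-fold gave 6 DEGs at 10 mM in place of 3, by its construction. Of 540 single-gene values under the alternatives, 534 kept their side of the threshold, 3 lost it (ATF3 at 20 mM) and 3 gained it (DDIT4), and 0 called values changed sign. With the replicate number as a block, 7 genes were called higher at 10 mM and 8 at 20 mM, as without it. Libraries with the same number showed no common deviation, with correlations from -0.41 to 0.29 and a median of 0.0012. With 3 libraries in a group, these values cannot show whether libraries with the same number were prepared together. Libraries with different numbers had correlations from -0.23 to 0.52, so some deviated together across numbers, which the block does not cover. The cause of this was not tested. No scaling moved the median of all genes by more than 0.1, but upper-quartile scaling raised the higher share of all calls from 40.9% to 51.6% at 10 mM and from 41.5% to 54.1% at 20 mM. The 10 genes rested on at least 495 reads in each library, and the standard errors of the 10 log2 fold changes between the doses were 0.05 to 0.12.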
